A study of Drosophila melanogaster with 3 samples.

Results

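The genes described here encode the general machinery that starts and carries on transcription by RNA polymerase II. They were the genes of the Mediator complex (symbols beginning MED with a number), the TBP-associated factors (Taf with a number), and genes with Polr2, RpII, TfII or numbered Spt symbols. A gene was taken when a probe carried its symbol as the only gene symbol and had a log2 ratio on all arrays. That gave 52 genes, measured by 56 probes, among 13026 features tested: 20 Mediator genes, 14 TAF genes, 9 TfII genes, 5 Polr2 genes and 4 Spt genes. No RpII symbol was among the probes used here. MED1, a subunit of the Mediator middle module, had a value on 2 of the 3 arrays, -0.16 on replicate 4 and -0.19 on replicate 6, and was left out of every count. The gene table used here held 67 genes with such symbols, and 14 of them had no probe by name, among them Polr2A and Polr2B, the catalytic large subunits of the polymerase, so they are not analysed here.

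RNA was from the larval midgut of Drosophila melanogaster EcR mutants, genotype EcRM554fs/EcRV559fs, in which no isoform of the ecdysone receptor is functional. The receptor is the nuclear receptor for the steroid hormone that times molting and metamorphosis. The mutants had been carried through earlier development by hs-EcR-B230.1, a transgene that heat shock switches on, and were collected at stage 2a, where they arrest late in the last larval instar. Amplified RNA of 3 independent mutant samples, called replicates 3, 4 and 6 after their titles, was hybridised on 1 array each against 1 common reference, a pool of midgut RNA from wild-type Canton S animals of various stages. A ratio therefore holds genotype, stage, heat shock history and strain background together, and these cannot be told apart here. The mutant carried the same dye on every array, and dye and genotype cannot be told apart either.

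RNA polymerase II is brought to promoters by a series of factors. TFIID, made of the TATA-binding protein and TAFs, recognises the core promoter, TFIIA and TFIIB join it, TFIIF escorts the polymerase, and TFIIE brings in TFIIH, which opens the DNA. Mediator bridges activators bound at enhancers, nuclear receptors such as EcR among them, to the polymerase. Its tail module is contacted by many activators and its head and middle modules touch the polymerase. Spt5 stays with the polymerase during elongation, whereas Spt3, Spt7 and Spt20 belong to SAGA, a histone-modifying coactivator that shares several TAFs with TFIID.

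A log2 ratio here is the likely mutant over reference value of a gene after each array was centred on its median, so 0 stands for the typical probe and a value below 0 for a lower transcript level in the mutant relative to that probe. The labels give the mutant as Cy5 and the reference as Cy3, but the value table does not name the numerator, and every direction would turn if it were the reference. A gene was called when limma's moderated test of its mean against 0 gave a Benjamini-Hochberg adjusted p under 0.05 over all features. In bulk tissue, fewer cells of a type and less RNA per cell cannot be told apart.

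Part of this machinery had lower ratios in the mutant midgut. The lowest were TfIIEbeta, a subunit of TFIIE (mean -0.79), MED21 of Mediator (-0.77) and TfIIB, which recruits the polymerase (-0.52). Of the 52 genes, 19 were lower, 0 were higher and 33 did not pass. The share called lower was 36.5% of the 52 genes, against 23.7% of all features and 25.2% of the 9756 named genes, and was thus above the background. The count of higher genes was below it, since 13.4% of all features and 13.6% of the named genes were called higher. The limma test gave an unadjusted p under 0.05 for 24 of the 52 (46.2%, against 46.9% of all features), a share near the background. Of the 24, 22 were below 0 (42.3% of the 52, against 27.3% of all features) and 2 above it, TfIIA-L and Taf10 (3.85%, against 19.6%). The median log2 ratio was -0.072 for the 52 genes, against 0.0081 for all features, and their medians were -0.077, -0.079 and -0.14 on replicates 3, 4 and 6. In all, 36 of the 52 had a mean below 0 (69.2%, against 48.4% of all features), and 36 had the same sign on every array, 28 below and 8 above 0, which is 69.2% against 67.2% of all features.

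The excess of lower calls over the background depended on 1 array. Without replicate 3 the test called 7 of the 52 genes lower (13.5%, against 15.3% of all features), a share near the background. The median of the 52 genes there was -0.078, against -0.072 with all arrays. Without replicate 4 the test called 16 genes lower (30.8% against 23.6%), and without replicate 6 it called 14 (26.9% against 20.3%). Calls also moved with where 0 was set. The deposited values set the median of all features higher by 0.061, and centring on chemosensory receptor probes set it lower, by -0.10. On the values as deposited 15 genes were lower (28.8% against 21.0% of all features) and 4 were higher, namely MED23, Polr2E, Taf10 and TfIIA-L. That setting called 23.3% of all features higher. With receptor centring, 25 of the 52 were lower (48.1% against 32.2%) and 0 higher (7.38% of all features were). A plain one-sample test with each gene's own variance called 0 of the 52, with 17 at an unadjusted p under 0.05 (32.7%, against 33.5% of all features), and called 4 of all 13026 features.

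**Figure D1:**
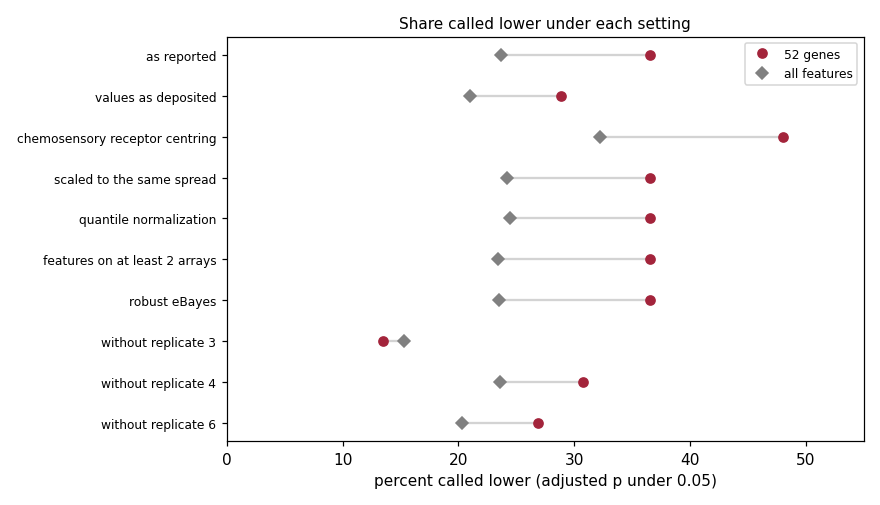
Percentage of genes called lower (adjusted p under 0.05, x axis) under each setting (rows), with circles for the 52 Mediator, TAF and polymerase II genes and diamonds for all features tested. The circle lies at 36.5% and the diamond at 23.7% as reported. Without replicate 3 they lie close together, at 13.5% and 15.3%, the only setting shown where the circle is left of the diamond.

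The changes were narrow in range. The 52 means ran from -0.79 to 0.18 with an SD between genes of 0.22, whereas the 5th and 95th percentiles of all features were -0.90 and 0.48 and their SD was 0.50. Only TfIIEbeta and MED21, 2 of the 52, differed by 1.5-fold or more, beside 13.7% of all features (9.5% of all features were called lower at that size), and 0 of the 52 differed by 2-fold or more, beside 6.1%. The SD between arrays was of like size in both, with a median of 0.090 for the 52 genes and 0.104 for all features. With 3 arrays the number of arrays limits the precision, and the 95% interval of a gene such as MED8, the call nearest the threshold at -0.19, ran from -0.33 to -0.044.

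**Figure D2:**
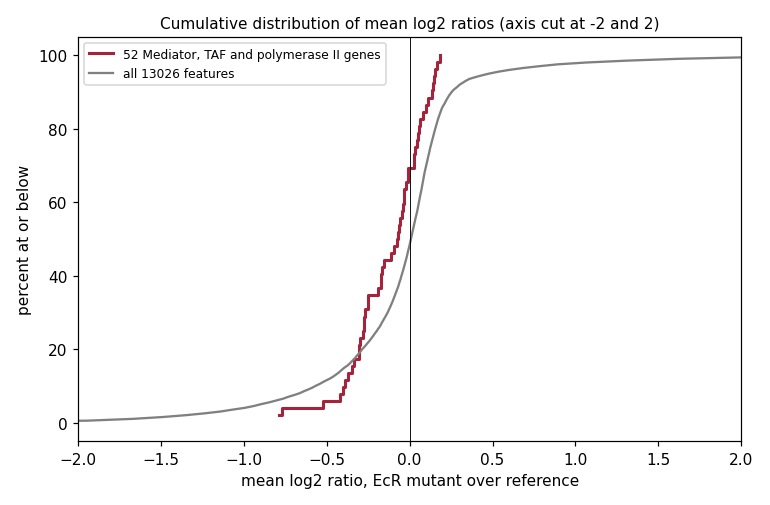
Percentage of genes (y axis) whose mean log2 ratio, likely EcR mutant over reference, lies at or below the value on the x axis, with the 52 genes as a stepped line and all 13026 features as a smooth grey line. The stepped line ends at 0.18 on the right and begins at -0.79 on the left, inside the range of all features.

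Markers of cell types moved on the same arrays, where 13.4% of all features were called higher and 23.7% lower. Of 7 enterocyte markers tested, 6 were higher, with a median of 1.17 and a range from 0.13 to 3.79, and in the midgut progenitor list esg was lower at -0.39 and Delta was at -0.10. The 3 fat body markers tested were all lower (median -0.92, range -1.01 to -0.46), as were both tracheal ones (btl at -0.88 and Gasp at -1.50). Of 6 hemocyte markers 2 were lower and 1 higher (median -0.12, range -1.14 to 0.23), of 4 muscle markers 2 were higher (median 0.30, range 0.025 to 0.58), of 3 enteroendocrine markers 1 was higher (median 0.16, range 0.10 to 0.30), and of 2 Malpighian tubule markers 1 was lower (range -0.30 to 0.056). No salivary gland marker was tested. Ratios carry no level, so whether a marker is present at all cannot be read from them, and the part of cell type makeup in the results below was not tested. EcR itself had 1.72, 0.57 and 2.19 on replicates 3, 4 and 6, a mean of 1.49 ± 0.83 (SD, n = 3 arrays; adjusted p = 0.0044), and replicate 4 was the lowest array. Without replicate 3 the EcR mean was 1.38 (adjusted p = 0.0552). Whether its probe also reads transgene or mutant allele RNA is not known.

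Among Mediator genes MED21 was lower by far more than the rest, and a few head and middle genes were slightly lower. Of 20, 5 were lower (25%, against 23.7% of all features), 0 were higher and 15 did not pass. The median was -0.052, and 0.0087 on the values as deposited. Without replicate 3 the count was 1 (5%, against 15.3% of all features), and without replicate 4 it was 3 (15%, against 23.6%). On the values as deposited 2 were lower (10%, against 21.0%) and 1 was higher (23.3% of all features were). The limma test gave an unadjusted p under 0.05 to 6 of the 20, all of them below 0. Of all features, 27.3% were below 0 at that cut. Mediator's medians were -0.061, -0.020 and -0.13 on replicates 3, 4 and 6. MED21, a small subunit of the middle module that forms part of the hinge next to the polymerase, stood apart from the others with -0.64, -0.80 and -0.87 on replicates 3, 4 and 6. All arrays were well below 0, and the mean was -0.77 ± 0.12 (SD, n = 3 arrays; adjusted p = 1.71e-04), a ratio of 0.587 relative to the typical probe. MED10, also of the middle module, had -0.25, -0.36 and -0.27 on replicates 3, 4 and 6, and a mean of -0.30 ± 0.057 (SD, n = 3 arrays; adjusted p = 0.00794). Its arrays lay close together, all below 0.

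The other Mediator genes called lower belong to the head module. MED30, a subunit found in animals, had -0.45, -0.11 and -0.28 on replicates 3, 4 and 6, with a mean of -0.28 ± 0.17 (SD, n = 3 arrays; adjusted p = 0.0281). MED18, which joins MED20 in a movable part of the head, had -0.15, -0.37 and -0.23 on replicates 3, 4 and 6, with a mean of -0.25 ± 0.11 (SD, n = 3 arrays; adjusted p = 0.0253). MED8, which tethers that pair to the head, had -0.27, -0.16 and -0.14 on replicates 3, 4 and 6, with a mean of -0.19 ± 0.068 (SD, n = 3 arrays; adjusted p = 0.049). All arrays were below 0 for these genes, with replicate 4 nearest to 0 for MED30 and farthest from it for MED18. Without replicate 3 the call of MED30, MED18, MED8 and MED10 was lost (adjusted p of 0.197, 0.0694, 0.267 and 0.0544), as was that of MED18 (0.0844) and MED8 (0.0736) without replicate 4, and that of MED8 (0.0926) without replicate 6. All 3 head calls were also lost on the values as deposited (adjusted p of 0.0535 for MED30, 0.058 for MED18 and 0.14 for MED8). MED21 was called with any replicate left out.

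By module, 3 of 7 head genes were lower (median -0.16), 2 of 6 middle genes (median -0.089) and 0 of 6 tail genes (median 0.039), against 23.7% of all features. The test gave 0 tail genes an unadjusted p under 0.05. With receptor centring the tail median was -0.060 and 2 tail genes were lower, beside 32.2% of all features. On the values as deposited 0 of the 7 head genes were lower, with 2 middle genes lower and 1 tail gene higher. Of all features, 21% were lower and 23.3% higher in that fit. Without replicate 3 the lower counts were 0 in the head, 1 in the middle and 0 in the tail, beside 15.3% of all features. The difference between modules was not tested. In the tail, MED16, MED23 and MED24, which in mammals sit together in 1 submodule, had means of 0.11, 0.14 and 0.15 that did not pass. MED24, the highest Mediator gene, had 0.36, 0.11 and -0.0094 on replicates 3, 4 and 6 (adjusted p = 0.185). Replicate 3 was the highest array for all 3 genes and replicate 6 the lowest. Of the other tail genes, MED15, a common target of activators, was at -0.17 (adjusted p = 0.113), MED27 at -0.093 and MED25 at -0.032, none past the threshold. MED14, the scaffold that joins the modules, was at -0.0074 (adjusted p = 0.943) with arrays on both sides of 0.

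The remaining head and middle genes, none past the threshold, were MED11 at -0.16, MED17 at -0.023, MED20 at 0.049 and MED28 at 0.10 in the head, and MED31 at -0.11, MED19 at -0.067, MED26 at -0.037 and MED4 at 0.060 in the middle. MED11 and MED31 were called lower with receptor centring, as were MED15 and MED27. MED26, which links Mediator to elongation factors, was read by a pair of probes that disagreed. One of its probes gave 0.21 on replicate 3, 0.29 on replicate 4 and 0.15 on replicate 6, and passed on its own as higher (mean 0.22, adjusted p = 0.0324). The other gave -0.38, -0.015 and -0.47 (mean -0.29, adjusted p = 0.0522). The mean of -0.037 for MED26 is therefore an average of probes with opposite signs and describes neither. The probe pairs of MED27 and MED31 gave means 0.068 and 0.073 apart, each below 0.

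The kinase module docks on Mediator reversibly and is encoded by genes with other symbols, of which 3 were tested, with 1 called higher (13.4% of all features were). kto, which encodes its MED12 subunit, was higher with 0.26, 0.33 and 0.22 on replicates 3, 4 and 6 and a mean of 0.27 ± 0.057 (SD, n = 3 arrays; adjusted p = 0.0125). Cdk8, the kinase, was at -0.034 (adjusted p = 0.693) and CycC, its cyclin, at -0.17 (adjusted p = 0.0743), and neither passed. The call of kto was lost with receptor centring (0.17, adjusted p = 0.0705) and without replicate 3 (0.0863), while CycC was the gene called lower with receptor centring.

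**Figure D3:**
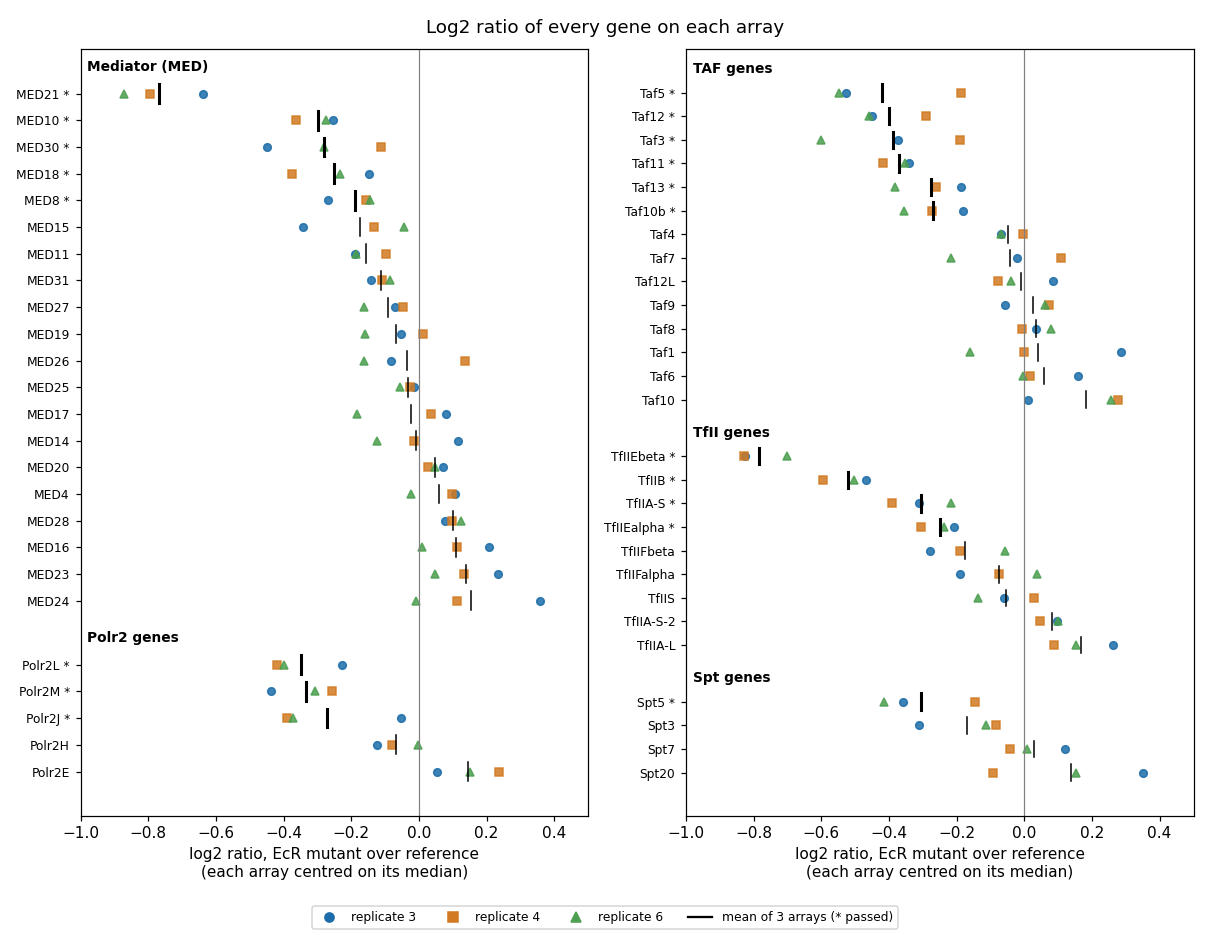
Log2 ratio, likely EcR mutant over reference (x axis), of each of the 52 genes (rows, grouped by symbol class and sorted by mean) on replicates 3, 4 and 6 (circle, square, triangle), with a vertical bar at the mean and an asterisk where the adjusted p was under 0.05. TfIIEbeta and MED21 lie farthest left with all arrays below -0.6, and no gene with an asterisk lies right of 0.

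Among TAF genes, 6 histone-fold or core subunits of TFIID were lower, from Taf5 at -0.42 to Taf10b at -0.27. Of 14, 6 were lower (42.9%, against 23.7% of all features), 0 were higher and 8 did not pass, with 1 gene above 0, Taf10, at an unadjusted p under 0.05. The median was -0.045, and 0.016 on the values as deposited, and the TAF medians were -0.062, -0.043 and -0.19 on replicates 3, 4 and 6. Taf5, whose WD40 domain helps to build the core of TFIID, had -0.53, -0.19 and -0.55 on replicates 3, 4 and 6, with a mean of -0.42 ± 0.20 (SD, n = 3 arrays; adjusted p = 0.00791). Taf3, which binds a histone mark of active promoters, had -0.37, -0.19 and -0.60 on replicates 3, 4 and 6, with a mean of -0.39 ± 0.21 (SD, n = 3 arrays; adjusted p = 0.0115). In both, all arrays were below 0 and replicate 4 was nearest to it, as it was for Taf12. Taf12, a histone-fold subunit, had -0.45, -0.29 and -0.46 on replicates 3, 4 and 6, with a mean of -0.40 ± 0.094 (SD, n = 3 arrays; adjusted p = 0.00284). Its pair of probes gave -0.29 (adjusted p = 0.0204) and -0.51 (adjusted p = 8.69e-04), each lower on its own.

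Taf11 and Taf13 form a histone-fold pair in TFIID, and both were lower. Taf11 had -0.34, -0.42 and -0.35 on replicates 3, 4 and 6, with a mean of -0.37 ± 0.042 (SD, n = 3 arrays; adjusted p = 0.00269). Taf13 had -0.19, -0.26 and -0.38 on replicates 3, 4 and 6, with a mean of -0.28 ± 0.10 (SD, n = 3 arrays; adjusted p = 0.0148). Their ranges overlapped, and Taf13 was the lower of the pair on 1 of the 3 arrays. Taf10b, a histone-fold TAF, had -0.18, -0.27 and -0.35 on replicates 3, 4 and 6, with a mean of -0.27 ± 0.087 (SD, n = 3 arrays; adjusted p = 0.0151). Of the 6 TAF calls, those of Taf11 and Taf12 were made with any replicate left out. Without replicate 3, Taf5 (adjusted p = 0.0836), Taf3 (0.0824), Taf10b (0.0556) and Taf13 (0.0564) did not pass, which left 2 of 14, and without replicate 6 Taf10b (0.0696) and Taf13 (0.0719) did not.

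Taf10 was the highest of the 52 genes, with 0.012, 0.28 and 0.25 on replicates 3, 4 and 6 and a mean of 0.18 ± 0.15 (SD, n = 3 arrays; adjusted p = 0.096). All arrays were above 0, replicate 3 only just, and it did not pass except on the values as deposited (0.24, adjusted p = 0.0357). Taf10 and Taf10b are paralogs that lie next to each other in the gene table, and Taf10b was below Taf10 on every array. Taf10b minus Taf10 was -0.19 on replicate 3, -0.55 on replicate 4 and -0.61 on replicate 6. This contrast was picked with the values known and was given no test. An exact test over 3 arrays cannot go below a two-sided p of 0.25.

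Other TAFs that did not pass lay between -0.047 and 0.057. They were Taf4 at -0.047, the histone-fold partner of Taf12, Taf7 at -0.043, Taf12L at -0.010, a testis paralog of Taf12, Taf9 at 0.027, Taf8 at 0.035, Taf1 at 0.041, the largest subunit of TFIID, and Taf6 at 0.057, the histone-fold partner of Taf9. Taf1 had the widest spread of the 52 genes, with 0.29, 0 and -0.16 on replicates 3, 4 and 6. The TATA-binding protein gene Tbp, whose product is part of TFIID with the TAFs, was at -0.16 (adjusted p = 0.0756) and did not pass. Among 3 further testis TAF genes, can was higher with 0.32, 0.23 and 0.25 on replicates 3, 4 and 6 and a mean of 0.27 (adjusted p = 0.0118), and nht at 0.13 and mia at 0.13 did not pass. A testis marker outside the TAFs, dj, was at 0.10. The 4 genes tested of the testis marker list were thus all above 0 (range 0.10 to 0.27), where the 70th percentile of all features was 0.10. Taf12L, which is outside that list, was not above 0. The call of can was lost with receptor centring (0.17, adjusted p = 0.0627) and without replicate 3 (0.104). Signal over background is unknown for these testis genes, as for all probes here.

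Partners within a complex did not always share a value. Taf12 was below Taf4 on every array, and Taf12 minus Taf4 was -0.35 ± 0.057 (SD, n = 3 arrays, as for the differences that follow). Taf3 was below its partner Taf10 on every array, with Taf3 minus Taf10 at -0.57 ± 0.25. Taf6 minus Taf9 was 0.031 ± 0.16, with the sign turning between arrays, and Taf8 minus Taf10 was -0.15 ± 0.16. In the Mediator head, MED18 was below MED20 on every array, with MED18 minus MED20 at -0.30 ± 0.094. These pairs were compiled from known structures with the values in view, and the differences were not tested.

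**Figure D4:**
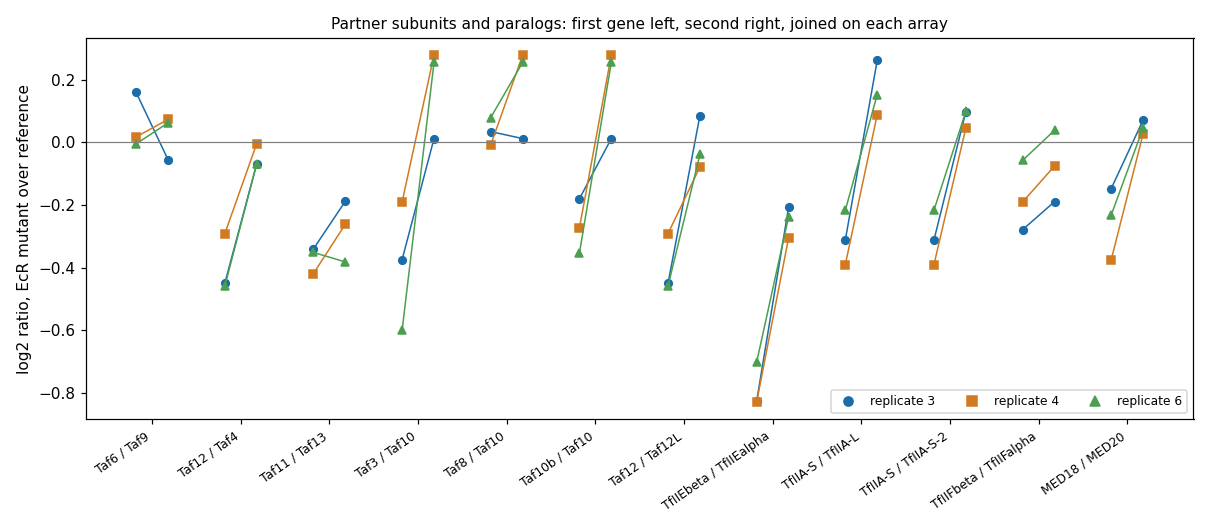
Log2 ratio, likely EcR mutant over reference (y axis), of partner subunits and paralogs (pairs along the x axis, first named gene left and second right), with a line joining the pair on each of replicates 3, 4 and 6. Among the pairs whose lines rise from left to right on every array are Taf12 and Taf4, Taf3 and Taf10, Taf10b and Taf10, TfIIEbeta and TfIIEalpha, and TfIIA-S and TfIIA-L. The lines for Taf6 and Taf9 differ in direction between arrays.

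TFIIE, TFIIB and the small subunit of TFIIA were lower, and TfIIEbeta was the lowest of all 52 genes. Of 9 TfII genes, 4 were lower (44.4%, against 23.7% of all features), 0 were higher and 5 did not pass, with 1 gene above 0, TfIIA-L, at an unadjusted p under 0.05. The median was -0.18, and the medians were -0.21, -0.19 and -0.14 on replicates 3, 4 and 6. TfIIEbeta, the small subunit of TFIIE, had -0.83, -0.83 and -0.70 on replicates 3, 4 and 6. Its arrays lay close together, and the mean was -0.79 ± 0.073 (SD, n = 3 arrays; adjusted p = 9.84e-05), a ratio of 0.58 relative to the typical probe. TfIIEalpha, the large subunit of TFIIE, was lower too, with -0.21, -0.30 and -0.24 on replicates 3, 4 and 6 and a mean of -0.25 ± 0.050 (SD, n = 3 arrays; adjusted p = 0.0157). The small subunit was below the large one on every array, and TfIIEbeta minus TfIIEalpha was -0.54 ± 0.078 (SD, n = 3 arrays), a difference that was not tested.

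TfIIB, which bridges the TATA-binding protein and the polymerase, had -0.47, -0.60 and -0.50 on replicates 3, 4 and 6, with a mean of -0.52 ± 0.066 (SD, n = 3 arrays; adjusted p = 6.26e-04). TFIIA, which steadies the TATA-binding protein on DNA, had subunit genes of opposite sign. TfIIA-S, its small subunit, had -0.31, -0.39 and -0.22 on replicates 3, 4 and 6, with a mean of -0.31 ± 0.087 (SD, n = 3 arrays; adjusted p = 0.00879). TfIIA-L, the precursor of its larger subunits, had 0.26, 0.088 and 0.15 on replicates 3, 4 and 6, with a mean of 0.17 ± 0.088 (SD, n = 3 arrays; adjusted p = 0.0811) that did not pass. All arrays were below 0 for TfIIA-S and above 0 for TfIIA-L, and TfIIA-S minus TfIIA-L was -0.47 ± 0.10 (SD, n = 3 arrays). TfIIA-L was called higher on the values as deposited (0.23, adjusted p = 0.0257) and stood at 0.068 with receptor centring. TfIIA-S-2, a paralog of the small subunit, was at 0.081 (adjusted p = 0.316) and did not pass.

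TFIIF subunits did not pass, with TfIIFbeta at -0.18 (adjusted p = 0.0822) and TfIIFalpha at -0.076 (adjusted p = 0.417), and neither did TfIIS, which restarts stalled polymerase, at -0.055 (adjusted p = 0.523). TfIIFbeta was called lower with receptor centring (-0.28, adjusted p = 0.0164). TfIIEbeta and TfIIB were called with any replicate left out. TfIIEalpha (adjusted p = 0.0809) and TfIIA-S (0.0752) were not called without replicate 3, which left 2 of the 9, beside 15.3% of all features.

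TFIIH, whose genes have other symbols, had members on both sides. Its 8 tested genes had a median of -0.011, and the calls were 2 higher and 1 lower, beside 13.4% and 23.7% of all features. The deposited values, left uncentred, gave 3 higher and 0 lower, beside 23.3% and 21% of all features. Receptor centring gave 1 and 2, beside 7.38% and 32.2%. Leaving out replicate 3 gave 0 and 0, beside 6.05% and 15.3%. Cdk7, the TFIIH kinase, was higher at 0.28 ± 0.070 (SD, n = 3 arrays; adjusted p = 0.0109), as was Mat1, which assembles that kinase with its cyclin, at 0.36 ± 0.13 (SD, n = 3 arrays; adjusted p = 0.00623). The call of Cdk7 was lost with receptor centring (adjusted p = 0.0523). Without replicate 3 those of Cdk7 and Mat1 were both lost (0.101 and 0.069). The cyclin gene CycH was at -0.014 (adjusted p = 0.875) and did not pass. hay, the translocase that opens DNA, was lower at -0.23 ± 0.13 (SD, n = 3 arrays; adjusted p = 0.0434), a call lost with any replicate left out. mrn was close to it at -0.22 but did not pass (adjusted p = 0.0535). It was called lower with receptor centring (0.0145), scaled (0.0386), with quantile normalization (0.0353) and without replicate 4 (0.0498).

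Among the polymerase II genes Polr2L, Polr2M and Polr2J were lower. The median over 5 genes was -0.27, the lowest of the symbol classes, although without replicate 6 that of the TfII genes was lower (-0.22 for Polr2 and -0.23 for TfII genes). Of the 5, 3 were lower (60%, against 23.7% of all features), 0 were higher, also at an unadjusted p under 0.05, and 2 did not pass. The medians were -0.13, -0.26 and -0.31 on replicates 3, 4 and 6. Polr2L, a small subunit that all nuclear RNA polymerases share, had -0.23, -0.42 and -0.40 on replicates 3, 4 and 6, with a mean of -0.35 ± 0.10 (SD, n = 3 arrays; adjusted p = 0.00593). Polr2M, whose mammalian counterpart Gdown1 is an associated regulator rather than a core subunit, had -0.44, -0.26 and -0.31 on replicates 3, 4 and 6, with a mean of -0.33 ± 0.093 (SD, n = 3 arrays; adjusted p = 0.00636). Polr2J, an assembly subunit particular to polymerase II, had -0.054, -0.39 and -0.37 on replicates 3, 4 and 6, with a mean of -0.27 ± 0.19 (SD, n = 3 arrays; adjusted p = 0.0384). All arrays of these genes were below 0, and for Polr2J replicate 3 lay close to 0. Its call was lost without replicate 4 (adjusted p = 0.133), without replicate 6 (0.107) and on the values as deposited (0.0648), and that of Polr2M without replicate 3 (0.0719), so that each of these left 2 of 5 called. In those fits 15.3% to 23.6% of all features were called lower.

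The other shared subunits did not pass. Polr2E had 0.052, 0.24 and 0.15 on replicates 3, 4 and 6, all above 0, with a mean of 0.15 ± 0.092 (SD, n = 3 arrays; adjusted p = 0.119), and Polr2H was at -0.069 (adjusted p = 0.409). On the values as deposited Polr2E was called higher (0.21, adjusted p = 0.0384). Subunits of the other nuclear polymerases, given for comparison, had list medians above 0, which for polymerase III turned to -0.023 with receptor centring. RNA polymerase I, which makes ribosomal RNA, had 2 of 5 genes higher (13.4% of all features were) and 0 lower (median 0.13), namely Polr1A at 0.35 ± 0.035 (SD, n = 3 arrays; adjusted p = 0.00333) and Polr1B at 0.36 ± 0.084 (SD, n = 3 arrays; adjusted p = 0.00415), its largest subunits. RNA polymerase III, which makes transfer RNA, had 2 of 7 higher and 0 lower (median 0.077), namely Polr3C at 0.26 ± 0.041 (SD, n = 3 arrays; adjusted p = 0.0134) and Polr3F at 0.25 ± 0.073 (SD, n = 3 arrays; adjusted p = 0.0194). Neither had a gene below 0 at an unadjusted p under 0.05. The calls of Polr1A and Polr1B held on the values as deposited, with receptor centring and with any replicate left out, whereas those of Polr3C and Polr3F were lost with receptor centring (adjusted p of 0.0765 and 0.102), without replicate 3 (0.0712 and 0.125) and without replicate 6 (0.0513 and 0.0885). With receptor centring polymerase III had 0 genes higher and 1 lower, Polr3E at -0.19 (adjusted p = 0.0397), beside 7.38% and 32.2% of all features. These are small lists, and the difference between the polymerases was not tested. The Polr2 class is also not a list of polymerase II alone. Polr2E, Polr2H and Polr2L are shared with polymerases I and III, and Polr2M is not counted as a core subunit. Polr2J was the only core subunit of the class particular to polymerase II, so these lists cannot show a contrast between the enzymes.

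Of 4 Spt genes, 1 was lower (25%, against 23.7% of all features) and 0 were higher, also at an unadjusted p under 0.05, with a median of -0.071 and medians of -0.10, -0.088 and -0.053 on replicates 3, 4 and 6. Spt5, the large subunit of the elongation factor DSIF, had -0.36, -0.15 and -0.42 on replicates 3, 4 and 6, with a mean of -0.31 ± 0.14 (SD, n = 3 arrays; adjusted p = 0.0154). All arrays were below 0, with replicate 4 nearest to it, and the call was lost without replicate 3 (adjusted p = 0.12) and without replicate 6 (0.0521). The SAGA genes Spt3 at -0.17 (adjusted p = 0.0984) and Spt7 at 0.028 (adjusted p = 0.757) did not pass. Spt20 was the highest of the class with 0.35, -0.091 and 0.15 on replicates 3, 4 and 6, on both sides of 0, and a mean of 0.14 (adjusted p = 0.273).

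Among neighbouring complexes in the same steps, the SAGA and ATAC list and the elongation factors had called genes on both sides of 0. Of all features, 23.7% were lower and 13.4% higher. Of 10 further SAGA and ATAC genes, 3 were lower and 1 higher (median -0.060), with Atac1 at -0.51 ± 0.17 (SD, n = 3 arrays; adjusted p = 0.00224) and the SAGA ubiquitin protease gene not at -0.51 ± 0.20 (SD, n = 3 arrays; adjusted p = 0.0032) farthest below 0, NC2beta at -0.26 and D12 at 0.20. Of 12 elongation factors, 2 were lower and 1 higher (median -0.081). Cdk9, the kinase that releases paused polymerase, was lower at -0.36 ± 0.043 (SD, n = 3 arrays; adjusted p = 0.00312) and its cyclin gene CycT was at -0.031 (adjusted p = 0.744). EloA was lower at -0.24, and dre4, which encodes a histone chaperone subunit of FACT, was higher at 0.23. With receptor centring there were 5 SAGA and ATAC genes and 6 elongation factors lower and 0 of either higher. Of all features, 32.2% were lower and 7.38% higher in that fit. D12 (adjusted p = 0.231) and dre4 (0.172) were no longer called there. The Paf1 complex, which travels with elongating polymerase, had 1 of 4 genes higher and 0 lower. That gene was Ctr9, with 1.34, 0.75 and 1.29 on replicates 3, 4 and 6 and a mean of 1.13 ± 0.32 (SD, n = 3 arrays; adjusted p = 3.34e-04), while Rtf1 at -0.012, atms at 0.036 and hyx at -0.11 did not pass. Ctr9 was farther from 0 than any of the 52 genes. With receptor centring and with each replicate left out in turn, Atac1, not, Cdk9 and Ctr9 stayed called, while without replicate 3 NC2beta, D12, EloA and dre4 were not called (adjusted p of 0.139, 0.179, 0.24 and 0.142).

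Set side by side, the share called lower was 60% of 5 Polr2 genes, 44.4% of 9 TfII genes, 42.9% of 14 TAF genes, 25% of 20 Mediator genes and 25% of 4 Spt genes, against 23.7% of all features. The Mediator and Spt shares were close to the background. The order rests on few genes in each class, was not tested and did not hold throughout. On the values as deposited, without replicate 4 and without replicate 6 the Polr2 share was 40%, below the 44.4% of TfII genes. The TAF share was 42.9% on the values as deposited and without replicate 4, and 14.3% without replicate 3, against 15.3% of all features there. With any replicate left out, 6 of the 19 calls were made each time: MED21, Polr2L, Taf11, Taf12, TfIIB and TfIIEbeta. These 6 were also called on the values as deposited, with receptor centring, scaled, with quantile normalization, with each probe on its own, with robust variances and with features measured on at least 2 arrays. At 1.5-fold or more only TfIIEbeta and MED21 of them were called, and the plain one-sample test called none. They came from 4 of the 5 classes.

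**Figure D5:**
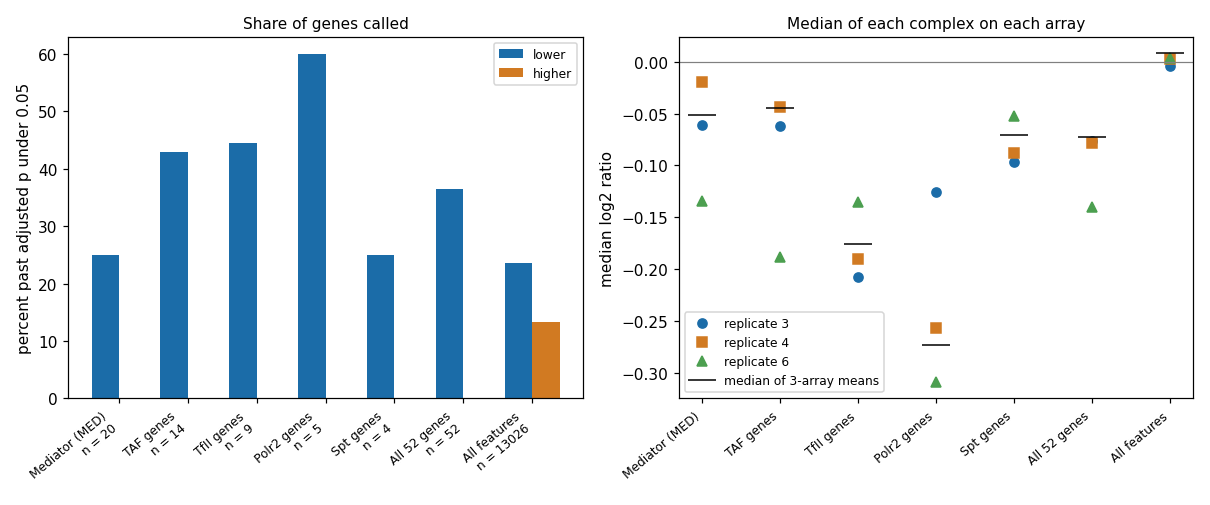
Left, percentage of genes in each symbol class, in all 52 genes and in all features called lower or higher at an adjusted p under 0.05 (y axis, bars, with n under each). Right, median log2 ratio of each on replicates 3, 4 and 6 (symbols) and over the means (line), where no symbol class has a median above 0 on any array after median centring (on the values as deposited those of Mediator and TAF genes over the means are above 0).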

How the data were processed

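The authors deposited log2 ratios, 1 for each of 20000 probes on each array. Per the labels, RNA was amplified by in vitro transcription, and the 3 mutant samples were independent. No source used here gives the scanner software, background correction or spot filter, and no intensities were used, so signal over background is unknown. The log base was settled from the values: once a constant per array was added to those under 1.5, raising 2 to them gave multiples of 0.001 in 100% of cases (within 0.02 of a step). 

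The platform annotation gave 1 gene symbol for 10828 probes, several for 227 and none for 8945. All 53 symbols of the genes described matched RefSeq entries by gene ID (assembly Release 6 plus ISO1 MT). After median centring of each array and averaging over the probes of a gene, the 13026 features measured on every array were tested against 0 in limma 3.58.1 (lmFit, then eBayes; 6.89 degrees of freedom) under R 4.3.3, with Benjamini-Hochberg adjustment. The reference counts as 1 control sample, and its own spread is left out. The genes, lists and alternatives were chosen with earlier results of these data known. Values on each array are given for every gene called and the highest and lowest of each class. Lists of other complexes are described by up to 4 called genes of largest ratio, and further members were named after their values were seen.

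The test was also run on simulated data with known changes, with noise taken from the fit to the real values. There 200 of 13026 features were given a change. The test recovered 16% of changes of log2 size 0.25 and 100% of those of 0.5, 1 or 2. Of its calls, 7.6% were false. In the real data 23.7% of all features were called lower and 13.4% higher, a far larger share than the simulation changed. The adjusted threshold is less strict where more features change, so these shares do not carry over to the calls above. Alternatives covered centring, scaling, quantile normalization, missing values, single probes, variance, thresholds and leaving out each replicate. Python 3.11.15 with pandas 2.3.3, numpy 2.4.6 and matplotlib 3.10.9 was used.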

Additional observations from a re-analysis of the deposited data

How the results depend on the processing

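No paired analysis was possible because all samples belong to 1 group. Of the alternatives, robust variances, quantile normalization, equal spread of the arrays and a fit that let in features missing from 1 array kept the same 19 calls. On the values as deposited, the genes called higher were 4 in all (1 each for Mediator, TAF, TfII and Polr2 genes), beside 23.3% of all features. Mediator genes called lower there were 2, beside 21% of all features. Medians there were -0.012 for all 52 genes, 0.0087 for Mediator, 0.016 for TAF, -0.12 for TfII and -0.010 for Spt genes. With receptor centring, 9 Mediator and 2 Spt genes were lower, beside 32.2% of all features. Medians were then -0.17 for all genes, -0.15 for Mediator, -0.14 for TAF, -0.28 for TfII, -0.37 for Polr2 and -0.17 for Spt genes. By construction these settings move every gene by the same amount on an array. At an adjusted p under 0.01, 10 genes were lower, with 2 of Mediator, 3 of TAF and 0 of Spt genes. The share of all features at that threshold was not counted, so these counts cannot be set against a background. With at least 1.5-fold, 2 genes were lower (1 Mediator and 1 TfII gene, 0 in the TAF, Polr2 and Spt classes), beside 9.5% of all features. The plain one-sample test, which has 2 degrees of freedom, called 0 in every class.

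Leaving out each replicate in turn gave 7 to 16 genes lower, in fits that called 15.3% to 23.6% of all features lower. By class the counts were 1 to 4 for Mediator, 2 to 6 for TAF, 2 to 4 for TfII, 2 in each case for Polr2 and 0 to 1 for Spt genes. Medians ran from -0.11 to -0.078 for all genes, -0.11 to -0.020 for Mediator, -0.093 to -0.016 for TAF, -0.23 to -0.12 for TfII, -0.28 to -0.21 for Polr2 and -0.080 to -0.058 for Spt genes. No gene was higher in any of these fits. Fits on 2 arrays have fewer degrees of freedom.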
